A study of Mus musculus with 12 samples.

Results

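Freshly dissected superior cervical ganglion was compared gene by gene with cells of the same ganglion grown in polystyrene scaffolds (3D culture). The members are 8 of the 12 arrays of the series, chosen by sample title: 4 arrays of tissue and 4 of 3D culture, each array a biological replicate. All arrays came from CD1 mice, for which the labels name no altered gene. Their age is 21 days in the labels and neonatal in the methods, a difference that could not be settled here. For culture the ganglia were digested with collagenase, broken up by pipetting, and plated as single cells and chunks on type I collagen in medium with serum and nerve growth factor for 5 days. RNA was taken from all cells without sorting, so neurons, glia, fibroblasts, vessel cells and macrophages could all contribute to either group. How many animals went into 1 array is not stated in the labels. The other 4 arrays hold flat (2D) cultures, and they enter below in the choice of each gene's probe set, in 1 alternative fit and in the comparison of 3D with 2D.

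The superior cervical ganglion is the uppermost ganglion of the sympathetic chain. Its neurons make noradrenaline, receive cholinergic input from the spinal cord through nicotinic receptors, and send unmyelinated axons to the head and neck. Satellite glia wrap each cell body, Schwann cells follow the axons, and a capsule and a dense capillary bed surround them all. Dissociation cuts every axon. Background knowledge therefore divides the genes into those of mature neurons, of the supporting cells and vessels, and of programs known from injured nerve and from cells put in serum: growth, matrix, adhesion and inflammation.

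Each gene was read from its brightest probe set, as a log2 value made by the authors with RMA (Robust Multichip Average), which corrects background, makes the array distributions alike and summarises the probes. A difference is the tissue mean minus the 3D mean on this log2 scale, so that 1 unit is 2-fold. Genes were called at an adjusted p under 0.05 from limma, a linear model that shares the spread between genes. Of 18193 genes, 6475 (35.6%) were called, 2815 (15.5%) higher in tissue and 3660 (20.1%) higher in 3D. The called differences had a median size of 1.08 log2 units, while the median difference of all genes was 0.03. Of the called genes 43.5% were higher in tissue, and 61.1% were when each array was centred on its bright probe sets, which moved the median difference of all genes to 0.31. At least 8-fold higher in tissue were 60 called genes and at least 8-fold higher in 3D were 186. At 16-fold or more these counts were 12 and 64. In 7706 genes (42.4%) the lowest array of one group lay above the highest of the other. Between scaffold and flat culture 3 genes (0.0165%) were called in the same way, and they are given last.

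Tissue replicates 2 and 3 stood apart, and the counts of the gene lists are given with and without them. The Actb control probe sets at the 3' and 5' ends of the transcript differed by 1.12 to 1.47 log2 units on the 3D arrays and by 1.63, 3.55, 4.21 and 2.21 on tissue replicates 1 to 4. For Gapdh the same measure was 0.48 to 0.83 in 3D and 1.1, 3.45, 3.05 and 1.0 in tissue. A larger value means that the 5' end gave less signal, as in shortened RNA. The median gene had an SD of 0.37 over the tissue arrays and 0.12 over the 3D arrays, and 89.4% of genes varied more in tissue. Skeletal muscle transcripts were above the 3D level on tissue replicates 2, 3 and 4 and within the 3D range on replicate 1. The summed level of 18 muscle genes was 10.02 to 10.12 on the 3D arrays and 10.03, 13.29, 12.26 and 13.13 on tissue replicates 1 to 4. Without tissue replicates 2 and 3, 4137 genes (22.7%) were called higher and 4483 (24.6%) lower. All 2815 and all 3660 genes called with the 4 arrays kept their sign, and 2617 and 3534 of them kept the call. The 2 fits share most arrays, so this is not an independent check. Leaving out 3D replicate 2 or 4 moved the higher count to 1842 and 1817. The part of RNA quality in any single difference was not tested.

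**Figure D1:**
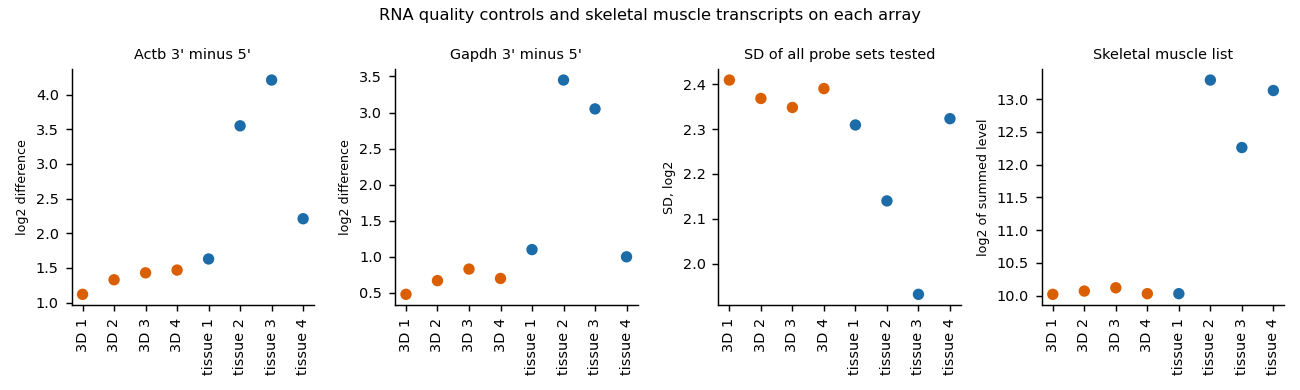
Measures of quality and muscle content on the 3D arrays (orange) and tissue arrays (blue), 1 point for each array: the 3' minus 5' log2 difference of the Actb and Gapdh control probe sets, the SD of all log2 values tested, and the log2 of the summed level of 18 skeletal muscle genes. Tissue replicates 2 and 3 have the largest 3' to 5' differences (3.55 and 4.21 for Actb), and muscle transcripts reach 12.26 or more on tissue replicates 2 to 4 and 10.03 on tissue replicate 1.

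Genes of the sympathetic transmitter were higher in tissue. Of 9 measured genes for noradrenaline synthesis, storage and uptake, 8 were higher in tissue and 0 lower, with a median difference of 2.13 against 0.03 for all genes (9 higher, median 2.41, without tissue replicates 2 and 3). Ddc, which encodes the decarboxylase that turns DOPA into dopamine, read 10.43, 9.13, 8.90 and 9.48 on 3D replicates 1 to 4 and 13.74, 13.44, 12.90 and 13.68 on tissue replicates 1 to 4. It was 15.5-fold higher in tissue (log2 difference 3.96, standard error 0.33, limma adjusted p = 7.2e-05), and the lowest tissue array was above the highest 3D array. Th, the rate-limiting hydroxylase, read 10.63, 9.93, 9.44 and 9.89 in 3D and 13.06, 12.64, 11.05 and 13.45 in tissue, a 5.97-fold difference (adjusted p = 0.0043). Its lowest tissue value, on replicate 3, was still above the highest 3D value. Slc6a2, the noradrenaline transporter, was 4.77-fold higher (12.50, 11.37, 11.37 and 11.06 against 13.97, 14, 13.41 and 13.93, adjusted p = 0.00078).

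Dbh, which makes noradrenaline from dopamine, was the member that did not pass by its brightest probe set, while its other 2 probe sets were called higher in tissue (up to 1.22). The brightest read 12.80, 11.94, 12.04 and 12.08 in 3D and 13.29, 12.10, 10.79 and 13.78 in tissue (difference 0.28, 95% interval -1.03 to 1.58, adjusted p = 0.73). The tissue arrays of poorer RNA fell among or below the 3D arrays and the others above all of them. Without replicates 2 and 3 the difference was 1.32 (adjusted p = 0.0033), and without tissue replicate 4 alone it turned to -0.16. Npy, the peptide co-released with noradrenaline, showed the same order of tissue arrays, with 13.36, 13.14, 12.69 and 13.04 in 3D and 13.26, 12.56, 11.54 and 13.90 in tissue. Its difference of -0.24 (95% interval -1.24 to 0.76, adjusted p = 0.68) was 0.18 without tissue replicate 3 and 0.52 without tissue replicates 2 and 3.

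The transcription factors that specify and keep sympathetic neurons were divided. Of 15 measured, 8 were higher in tissue (10 without tissue replicates 2 and 3) and 1 lower (3), with a median difference of 0.66. Gata2 read 8.81, 8.35, 8 and 8.52 in 3D and 11.25, 11.72, 11.20 and 11.52 in tissue, 8.01-fold higher (adjusted p = 2.1e-05). Isl1, a LIM homeodomain factor, was 7.44-fold and Tfap2b 6.74-fold higher (adjusted p = 1.4e-05 and 1.5e-05). In all 3 every tissue array was above every 3D array. Hand2, needed for the noradrenergic genes, differed less, with 12.21, 11.79, 11.80 and 11.75 in 3D and 13.04, 12.96, 12.24 and 13.25 in tissue (1.98-fold, adjusted p = 0.011). Its other 2 probe sets were not called, and the mean of the 3 was 0.52 (adjusted p = 0.054). The 1 member lower in tissue was Sox4, a factor of immature neurons and progenitors, at -1.69 (adjusted p = 0.0022).

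Release machinery was also higher in tissue. Of 26 genes for synaptic vesicles and release, 16 were higher in tissue (22 without tissue replicates 2 and 3) and 0 lower, with a median of 1.43. Pclo, a scaffold of the active zone, was 9.32-fold higher (7.14, 6.64, 6.43 and 6.58 against 9.56, 10.33, 10.27 and 9.51, adjusted p = 4.2e-05). Syt1, the calcium sensor of fast release, was 6.30-fold higher (11.18, 10.58, 10.49 and 10.42 against 13.43, 13.35, 12.96 and 13.55, adjusted p = 4.6e-05). In both genes 3D replicate 1 was the highest of the cultures and still lay under every tissue array. Of the dense-core granule genes 4 of 13 were higher (Chga 2.34, Pcsk1n 1.74, Ptprn2 1.46 and Chgb 1.22) and 0 lower. Their median was 0.53. The share called in either direction was near the 35.6% of all genes, and the share higher in tissue was above the 15.5% of all genes. The granule count was 9 without tissue replicates 2 and 3. It dropped to 2 when 3D replicate 2, 3 or 4, or tissue replicate 1 or 2, was left out. Chgb and Ptprn2 were the members that lost their call (adjusted p up to 0.077 and 0.11).

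In the neuronal cytoskeleton list 10 of 24 genes were higher in tissue and 0 lower, median 0.61. Over all genes 35.6% were called, 15.5% higher in tissue. The count was 16 without tissue replicate 3 and 20 without tissue replicates 2 and 3, where 1 was lower. Tubb3, the neuronal tubulin, read 11.99, 11.36, 11.37 and 11.60 in 3D and 12.54, 12.78, 12.44 and 12.83 in tissue (2.10-fold, adjusted p = 0.0023). Neuronal RNA-binding proteins, which direct splicing and RNA stability, gave 9 of 13 higher and 0 lower with a median of 1.41 (11 without tissue replicates 2 and 3). Elavl2 was 4.77-fold higher in tissue (adjusted p = 8e-05). In such bulk samples fewer cells of a type and less RNA per cell cannot be told apart. The medians of these lists ran from 0.53 for granules to 2.13 for noradrenaline genes, and differences between lists were not tested.

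**Figure D2:**
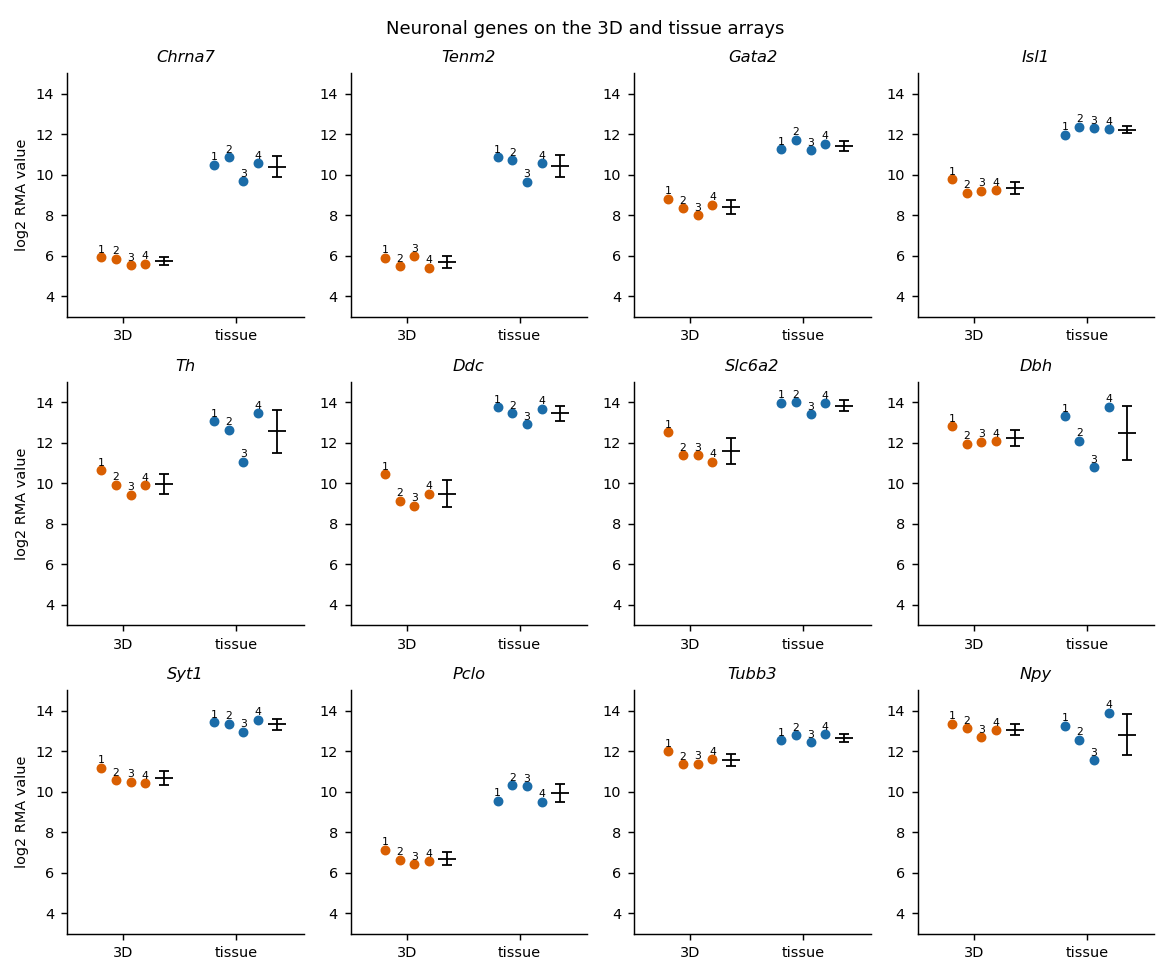
Log2 RMA values of 12 neuronal genes on the 3D arrays (orange) and tissue arrays (blue), with the replicate number above each point and the mean ± SD of the 4 arrays beside them. Chrna7, Tenm2, Gata2, Isl1, Th, Ddc, Slc6a2, Syt1, Pclo and Tubb3 do not overlap between the groups, while Dbh and Npy do, with tissue replicate 3 lowest in both. Of all genes 42.4% do not overlap, and Chrna7 and Tenm2 were picked from these.

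Receptors and channels were higher in tissue in part. Chrna7, the subunit that forms calcium-permeable nicotinic receptors by itself, read 5.93, 5.86, 5.54 and 5.60 in 3D and 10.49, 10.86, 9.67 and 10.57 in tissue. This is a 25.4-fold difference (log2 4.67, standard error 0.25, adjusted p = 7e-06). The other probe set of Chrna7 was not called (0.32). Chrna3, the pore subunit of the ganglionic synapse, read 10.32, 9.45, 9.42 and 9.56 in 3D and 12.26, 11.66, 10.56 and 12.60 in tissue, 4.24-fold higher in tissue (adjusted p = 0.0058). Across 22 transmitter receptor genes 8 were higher (12 without tissue replicates 2 and 3) and 2 lower. Over all genes 35.6% were called, 15.5% higher in tissue. The 2 lower were the ATP receptor P2rx4 (-1.02) and the ADP receptor P2ry1 (-0.79). P2ry1 did not pass after centring on bright probe sets (-0.51, adjusted p = 0.055).

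Among 28 voltage-gated channel genes 15 were higher in tissue and 3 lower (17 and 3 without tissue replicates 2 and 3). Potassium channels of the fast inactivating kind went opposite ways. Kcnd2 read 7.09, 6.09, 5.76 and 6.05 in 3D and 9.38, 9.97, 9.20 and 8.97 in tissue, 8.77-fold higher (adjusted p = 0.00018). Kcna4 read 8.5, 9.20, 8.92 and 8.89 in 3D and 5.27, 5.07, 5.71 and 5.19 in tissue, 11.9-fold higher in 3D (adjusted p = 8.5e-06). The other 2 that were lower in tissue were Kcnd3 (-2.27) and Cacna1h (-1.41), a low-voltage calcium channel. No other probe set of these 2 genes was called (up to 0.19 and 0.18). Cacna1c, which is only 1 of the L-type pore genes, did not pass (0.16, 95% interval -0.26 to 0.58, adjusted p = 0.52).

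Several of the genes with the largest excess in tissue lie outside these lists. Tenm2, a teneurin that links membranes across synapses, read 5.90, 5.50, 5.99 and 5.42 in 3D and 10.87, 10.71, 9.65 and 10.56 in tissue (26.8-fold, adjusted p = 1e-05). Gng4, a G protein gamma subunit, was 24.1-fold, Atp2b3, a calcium pump of the plasma membrane, 16.1-fold, and Gpm6a, a glycoprotein of growing neurites, 14.6-fold higher. The other probe set of Atp2b3 was not called (0.44). Chodl, a lectin-like membrane protein, was 16.3-fold, Fmn1, a formin that builds actin filaments, 13.8-fold, and Tmem255a 24.8-fold higher. These 7 were picked from the genes past the threshold with no overlap between the groups, so neither property is a separate result.

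Several trophic factors were higher in 3D. Of 19 neurotrophic factors and receptors 8 were lower in tissue and 3 higher, median -0.50 (9, 5 and median -0.09 without tissue replicates 2 and 3). After cyclic loess 6 were lower and 6 higher, and after centring on bright probe sets 6 and 4. The 8 were the ligands Gdnf, Artn, Lif, Bdnf (-0.61) and Nrtn (-0.54) and the receptor genes Gfra1, Il6st (-1.72) and Osmr (-2.84). Gdnf, a survival factor that signals through Ret, read 11.14, 11.59, 11.59 and 11.47 in 3D and 4.67, 4.88, 5.66 and 4.94 in tissue. It was 85.0-fold higher in the scaffold (log2 difference -6.41, standard error 0.22, adjusted p = 1.4e-06). Artn, its relative known to guide sympathetic axons, was 32.1-fold (9.81, 10.32, 10.49 and 10.40 against 5.52, 5.34, 4.65 and 5.49) and Lif, the cytokine that shifts injured sympathetic neurons toward other transmitters, 25.0-fold higher in 3D (9.71, 10.02, 9.60 and 9.86 against 4.97, 5.40, 5.26 and 4.99). The other probe set of Lif was not called (0.20). Bdnf lost its call without 3D replicate 2, 3 or 4 (adjusted p up to 0.073), and Bdnf and Nrtn lost theirs after cyclic loess (adjusted p = 0.12 and 0.056) and after centring (0.26 and 0.23). In Gdnf, Artn and Lif every 3D array was above every tissue array. Gfra1, the GDNF co-receptor, was 6.31-fold higher in 3D as well (adjusted p = 0.0002). The 3 members higher in tissue were receptors: Ntrk3 for neurotrophin-3 (2.19), Lifr for LIF (1.5) and Cntfr for CNTF (1.04). Ngfr, the low-affinity neurotrophin receptor, did not pass (-0.98, 95% interval -1.87 to -0.10, adjusted p = 0.08). Its other 2 probe sets were called lower in tissue, and the mean of the probe sets was -1.66 (adjusted p = 0.0096). The brightest passed without tissue replicates 2 and 3 (-0.44, adjusted p = 0.019), and also without tissue replicate 3 or 4.

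Of 18 peptide precursor genes 5 were lower in tissue (Cartpt, Sst, Vip, Cck and Nppb) and 2 higher (Adcyap1 0.76 and Nmb 0.64), median -0.25 (6 and 3 without tissue replicates 2 and 3), a share near the 35.6% called over all genes. Cartpt read 11.65, 11.28, 11.39 and 11.59 in 3D and 6.76, 6.97, 7.42 and 7.09 in tissue, 21.4-fold higher in 3D (adjusted p = 1.7e-06). Sst was 5.17-fold and Vip 3.86-fold higher in 3D, Cck had a difference of -1.32 and Nppb of -0.77, whose call ended after centring on bright probe sets (adjusted p = 0.088). Adcyap1 lost its call when 3D replicate 2, 3 or 4, or one of tissue replicates 2 and 3, was left out (adjusted p up to 0.12), and without tissue replicates 2 and 3 together.

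Injury genes were higher in the scaffold. Of 20 genes known from cut nerve 14 were lower in tissue and 0 higher, median -1.61 (15 and 2 without tissue replicates 2 and 3). Atf3, a transcription factor that neurons and glia switch on after axon damage, read 12.76, 13.37, 13.36 and 13.36 in 3D and 7.83, 7.72, 7.01 and 8.03 in tissue. The 47.3-fold difference (log2 -5.57, standard error 0.24, adjusted p = 3.1e-06) separated all arrays of the groups.

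Satellite glia markers did not move as 1 group. Of 18 measured 8 were lower and 4 higher in tissue, median -0.96. The lowest was Artn (-5.00), which is also counted among the trophic factors. Without tissue replicates 2 and 3 the counts were 8 and 6 and the median was -0.14. Sox2, a factor of glial progenitors, read 12.25, 12.67, 12.56 and 12.58 in 3D and 9.52, 9.53, 9.72 and 9.56 in tissue (7.63-fold higher in 3D, adjusted p = 4.2e-06). Sox10, present in all ganglion glia, was 3.20-fold higher in 3D (adjusted p = 0.0035). Kcnj10, the potassium channel by which mature satellite cells buffer the space around neurons, went the other way: 7.78, 7.44, 7.43 and 7.49 in 3D and 9.72, 9.47, 9.54 and 9.69 in tissue, 4.20-fold higher in tissue (adjusted p = 1.8e-05). The other 3 higher in tissue were Apoe (1.70), which carries lipid, Glul (1.51), which makes glutamine, and Slc1a3 (0.92), which takes up glutamate. With its probe sets averaged, Glul did not pass (0.66, adjusted p = 0.055). Apoe lost its call without 3D replicate 2, 3 or 4 or tissue replicate 2 (adjusted p up to 0.067). Fabp7, another satellite marker, did not pass (0.79, adjusted p = 0.08), and passed without tissue replicate 3 or without tissue replicates 2 and 3 (1.29, adjusted p = 0.0022).

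Of 17 Schwann cell myelin genes 6 were higher and 2 lower in tissue, median 0.37 (10 and 2 without tissue replicates 2 and 3). All genes together gave 35.6% called, 15.5% higher in tissue. When 3D replicate 1, 2 or 4 was left out, 3 were higher. Mbp, a structural protein of myelin, was 3.22-fold higher in tissue (10.45, 10.66, 11.05 and 10.87 against 13.12, 12.47, 11.58 and 12.60, adjusted p = 0.0033). Egr2, the regulator of myelination and also an immediate early gene, was 17.1-fold higher in 3D (9.98, 9.26, 9.75 and 9.76 against 5.58, 6.10, 5.97 and 4.72, adjusted p = 3.6e-05). The other gene lower in tissue was Sh3tc2 (-1.09), a Schwann cell adaptor.

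Vessel genes were higher in tissue. Of 20 endothelial genes 14 were higher in tissue and 0 lower, median 1.21 (17 and median 1.58 without tissue replicates 2 and 3). Sox17, a factor of arterial endothelium, read 4.75, 4.61, 5.27 and 4.39 in 3D and 8.80, 8.39, 7.80 and 8.62 in tissue (12.5-fold, adjusted p = 2.9e-05). Aplnr, the apelin receptor of growing vessels, was 22.5-fold higher in tissue (adjusted p = 5e-05). Pecam1, which defines the cell type, read 4.62, 4.85, 4.73 and 4.92 in 3D and 6.54, 5.78, 4.56 and 7.02 in tissue. Its difference of 1.20 did not pass (adjusted p = 0.071), and passed without tissue replicate 3 or without tissue replicates 2 and 3 (2, adjusted p = 3.7e-05). The summed level of the 20 genes was 10.99 to 11.37 in 3D and 11.94 to 12.72 in tissue.

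Of 14 pericyte and smooth muscle genes 3 were higher in tissue (Rgs5 2.51, Abcc9 1.61 and Notch3 0.61) and 2 lower (Pdgfrb -1.83 and Acta2 -1.75), again near the 35.6% of all genes (5 and 2 without tissue replicates 2 and 3). Rgs5 and Abcc9 mark resting pericytes, while Acta2, smooth muscle actin, is also made by activated fibroblasts. No other probe set of Acta2 was called (up to -0.03). Notch3 lost its call without 3D replicate 1 or 4 or tissue replicate 2 (adjusted p up to 0.07). Of 15 genes of resident fibroblasts 5 were higher in tissue (Dpt 3.34, Cd34 2.54, Smoc2 2.32, Gsn 0.68 and Pi16 0.67) and 0 lower, median 0.68 (9 without tissue replicates 2 and 3, and 8 without tissue replicate 3). The share called in either direction was near the 35.6% of all genes, and the share higher in tissue was above the 15.5% of all genes. Dpt, a small matrix protein, read 5.39, 6.01, 5.96 and 5.83 in 3D and 9.73, 8.59, 8.84 and 9.40 in tissue. Gsn lost its call when any of 3D replicates 1, 2 and 4 and tissue replicates 1 and 2 was left out, and without tissue replicates 2 and 3 (adjusted p up to 0.095 with 1 array left out).

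Barrier junction genes included the second largest difference in the tissue's favour after the muscle gene Myh1. Which cells made these transcripts was not tested. Cdh1, E-cadherin, read 3.96, 4.39, 3.93 and 3.97 in 3D and 8.88, 9.59, 9.65 and 8.90 in tissue, 36.6-fold higher (log2 difference 5.19, standard error 0.22, adjusted p = 2.8e-06). Cldn1, the claudin of perineurial tight junctions, read 5.27, 5.71, 6.24 and 5.83 in 3D and 11.02, 9.99, 9.04 and 10.70 in tissue (21.5-fold, adjusted p = 0.00011). The other probe sets of Cldn1 were not called (down to 0.12). Over the 13 barrier junction genes 5 were higher (with F11r 1.15, Marveld2 1.05 and Ocln 0.69) and 1 lower (Jam3, -1.5), median 0.54 (7 and 1 without tissue replicates 2 and 3). Over all genes the share called was 35.6%, with 15.5% higher in tissue. The call of Ocln ended without any 1 of the 3D arrays or without tissue replicate 2 (adjusted p up to 0.087). Keratins and other epithelial or thyroid genes gave 0 of 10 called by limma in either direction (2 higher without tissue replicate 1 and 1 higher without tissue replicate 3, or without tissue replicates 2 and 3), with a summed level of 9.85 to 10.22 in 3D and 10.03 to 10.82 in tissue. Epcam among them read 8.49, 8.39, 8.60 and 8.41 in 3D and 8.68, 9.08, 9.98 and 8.71 in tissue (0.64, adjusted p = 0.098). Sfrp5, a secreted antagonist of Wnt signals, was 16.8-fold higher in tissue.

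Cell division marked the scaffold more uniformly than any other list. All 25 measured genes of mitosis and cytokinesis were lower in tissue, with a median of -3.07 against 0.03 for all genes and a range of -4.41 to -1.52, and all 25 were called whichever array was left out. Mki67, the Ki-67 antigen of cycling cells, read 10.96, 10.60, 10.57 and 10.63 in 3D and 6.02, 6.57, 7.01 and 5.66 in tissue (20.7-fold higher in 3D, adjusted p = 1.6e-05). Top2a, the topoisomerase that untangles chromosomes, was 21.2-fold (10.23, 9.99, 9.72 and 9.95 against 5.91, 5.68, 5.32 and 5.36) and Tpx2, a spindle assembly factor, 20.2-fold higher in 3D. DNA replication genes gave 18 of 24 lower and 1 higher, median -1.55 (21 and 1 without tissue replicates 2 and 3). Uhrf1, which carries DNA methylation through replication, read 10, 9.94, 9.92 and 9.85 in 3D and 6.19, 6.39, 6.07 and 6.19 in tissue (13.2-fold higher in 3D, adjusted p = 1.4e-06). The exception was Ccne1 (1.14, adjusted p = 0.016), cyclin E1, whose call ended without tissue replicate 2. Of 11 D cyclins and inhibitors of cyclin-dependent kinases 6 were lower and 1 higher, also without tissue replicates 2 and 3. The inhibitor Cdkn1a was 3.40-fold higher in 3D (11.34, 11.13, 11.28 and 11.07 against 9.29, 9.42, 9.32 and 9.73), and the inhibitor Cdkn1c 3.07-fold higher in tissue (5.30, 5.39, 5.46 and 5.39 against 6.92, 6.81, 6.96 and 7.33). The arrays do not say which cells divided.

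The promoters of these genes are shown because the mitosis list was the most uniform. CCAAT, the element known to bind NF-Y, and TTTGAA, the cell cycle genes homology region, were searched on both strands in RefSeq windows of 250 bases before to 50 after each start site (GRCm38.p6). Of 25 mitosis genes 21 had a window. CCAAT was held by 17 of these (81.0%, against 41.1% of 27025 genes with a window), TTTGAA by 17 (81.0% against 20.2%) and both by 15 (71.4% against 7.97%). Of 20 replication genes with a window 13 held CCAAT (65.0%), 3 TTTGAA (15%) and 2 both (10%). Capitals mark CCAAT or TTTGAA, or ATTGG or TTCAAA where the match is on the other strand. The stretches are the 250 bases before the start of the 2 mitosis genes with the lowest differences that hold both, Top2a at chr11:99024190-99024439 (minus strand) and Mki67 at chr7:135716380-135716629 (minus strand), 5′ to 3′.
Top2a: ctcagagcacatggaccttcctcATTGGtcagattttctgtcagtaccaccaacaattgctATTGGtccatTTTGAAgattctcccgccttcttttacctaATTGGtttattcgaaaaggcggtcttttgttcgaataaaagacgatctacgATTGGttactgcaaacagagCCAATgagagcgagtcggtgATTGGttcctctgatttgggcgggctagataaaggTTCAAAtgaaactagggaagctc
Mki67: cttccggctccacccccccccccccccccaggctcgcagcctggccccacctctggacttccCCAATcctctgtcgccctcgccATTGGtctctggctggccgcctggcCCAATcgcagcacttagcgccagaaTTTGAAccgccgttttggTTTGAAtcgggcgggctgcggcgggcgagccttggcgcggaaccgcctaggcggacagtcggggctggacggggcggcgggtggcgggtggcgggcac
The Top2a stretch holds 6 CCAAT matches and 2 TTTGAA matches, and the Mki67 stretch 3 and 2. A match is a run of letters and was not tested as a binding site.

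Immediate early genes, which cells switch on within minutes of a stimulus, were also higher in 3D after 5 days. Of 27 measured 20 were lower in tissue and 1 higher, median -1.72 (22 and 1 without tissue replicates 2 and 3). Fos read 11.98, 12.68, 12.66 and 12.66 in 3D and 9.05, 8.51, 8.38 and 8.51 in tissue, 14.7-fold higher in 3D (adjusted p = 8.8e-06). Fosl2, a slower relative, was 18.1-fold higher (11.80, 12.06, 12.08 and 12.10 against 7.91, 7.83, 7.89 and 7.71, adjusted p = 1.4e-06). The 1 member higher in tissue was Jund (0.65), whose call ended without 3D replicate 1, 2 or 4 (adjusted p up to 0.062). The CArG box, to which serum response factor is known to bind, was held by 3 of 21 members with a window (14.3%, against 1.81% of all genes). It is shown for Egr2, the member with the lowest difference that holds one, in the 250 bases before its start at chr10:67537316-67537565 (plus strand, GRCm38.p6), with the box in capitals.
Egr2: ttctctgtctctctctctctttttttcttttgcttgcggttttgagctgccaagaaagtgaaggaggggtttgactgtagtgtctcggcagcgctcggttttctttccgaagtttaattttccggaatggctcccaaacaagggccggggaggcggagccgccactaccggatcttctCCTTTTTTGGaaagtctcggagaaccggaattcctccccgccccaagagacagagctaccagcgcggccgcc

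Clock genes were less uniform. Of 18 circadian genes 8 were lower in tissue and 2 higher (Hlf 1.21 and Tef 0.61), median -0.39 (10 and 3 without tissue replicates 2 and 3), and 5 were lower without 3D replicate 2. Nfil3, a repressor in the clock's output, was 17.9-fold higher in 3D (9.73, 10.08, 10.15 and 10.44 against 6.17, 5.47, 5.46 and 6.64, adjusted p = 2.4e-05). The letters CACGTG, the E-box read by the clock factors, stood in the windows of 5 of 16 members (31.2%, against 8.09% of all genes). The time of day of sampling is not stated in the labels or methods.

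**Figure D3:**
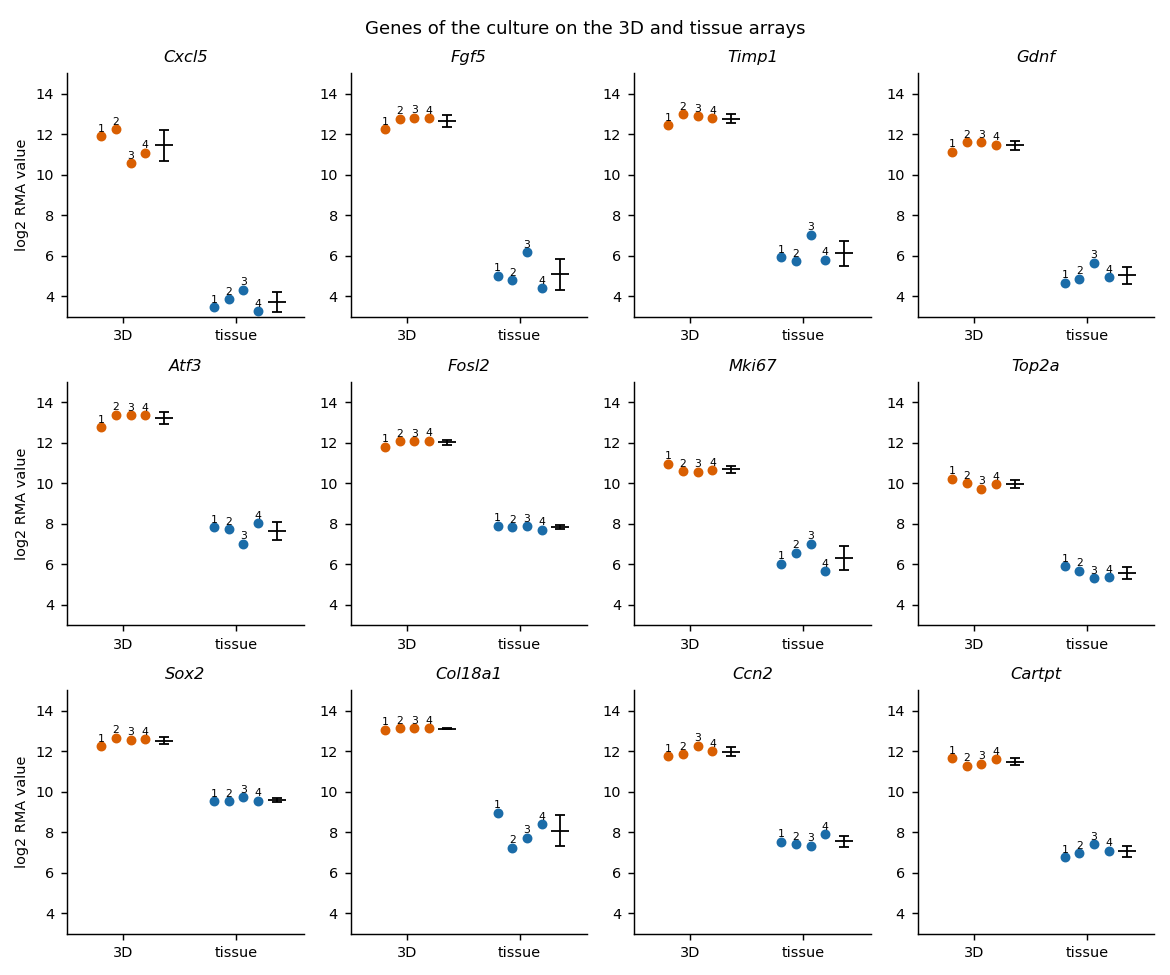
Log2 RMA values of 12 genes higher in the scaffold, 3D arrays in orange and tissue arrays in blue, with the replicate number above each point and the mean ± SD of the 4 arrays beside them. None of the 12 overlap between the groups, as 42.4% of all genes do not, and in Cxcl5, Fgf5, Timp1 and Gdnf the means are more than 6 log2 units apart. Cxcl5, Fgf5, Timp1 and Gdnf were picked for large differences without overlap, so neither property is a separate result.

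Inflammatory mediators held the single largest difference. Of 35 cytokines, chemokines and prostaglandin enzymes 23 were lower in tissue and 0 higher, median -1.5 (26 and 0 without tissue replicates 2 and 3). Cxcl5, which draws neutrophils, read 11.89, 12.24, 10.56 and 11.09 in 3D and 3.46, 3.86, 4.33 and 3.26 in tissue. The difference was 210-fold (log2 -7.72, standard error 0.38, adjusted p = 5.5e-06), and since RMA gives no detection call the tissue values may be background. Cxcl2 was 107-fold, Ccl2, which draws monocytes, 94.7-fold, the prostaglandin synthase Ptgs2 84.0-fold and Il6 68.0-fold higher in 3D. Il6 read 9.20, 11.39, 9.72 and 9.46 in the scaffold and 3.75, 3.58, 4.24 and 3.85 in tissue.

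Of 20 macrophage markers 9 were higher in tissue and 4 lower (11 and 5 without tissue replicates 2 and 3), median 0.47. Csf1r, the receptor that macrophages need to survive, was 3.36-fold higher in tissue (9.25, 9.48, 9.22 and 8.84 against 11.58, 10.46, 9.92 and 11.83, adjusted p = 0.011), though not when its probe sets were averaged (0.93, adjusted p = 0.053). Those lower in tissue were Cd14 (-2.95), the co-receptor for endotoxin, Cd68 (-1.64), a lysosomal protein, Lyz2 (-1.56), lysozyme, and Itgam (-0.76), an integrin of myeloid cells that did not pass after centring (-0.48, adjusted p = 0.076). Cd14 read 9.79, 10.46, 10.22 and 10.32 in 3D and 7.73, 6.90, 6.65 and 7.71 in tissue, without overlap.

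H2-Aa, a class II chain, was 10.7-fold (6.37, 6.67, 6.62 and 6.68 against 10.70, 9.34, 9.95 and 10.04) and Cd74, its invariant chain, 11.7-fold higher in tissue (6.51, 6.74, 6.75 and 6.54 against 10.35, 10.43, 9.11 and 10.84). Across 21 MHC and interferon genes 6 were higher and 4 lower (Ifit3 -2.55, Usp18 -1.76, B2m -1.46 and Irf7 -1.25), and 6 and 1 without tissue replicates 2 and 3. Leaving out 3D replicate 2, 3 or 4, or tissue replicate 2, took the lower count to 0, and B2m also lost its call without 3D replicate 1 and Irf7 without tissue replicate 3. Of 12 complement genes 4 were higher (Clu 3.63, Cd55 1.70, C2 1.69 and Cfp 1.03) and 1 lower (C3ar1, -1.55), and 6 and 3 without tissue replicates 2 and 3. The lower count was 4 without tissue replicate 3 and 2 without 3D replicate 1. The share of complement genes called was near the 35.6% of all genes, which also stands beside the MHC and interferon counts. The call of Cfp ended without 3D replicate 3 or 4 or tissue replicate 2, and its dimmer probe set was called the opposite way (-1.08, adjusted p = 0.0097). Clu, a secreted chaperone, read 9.47, 8.56, 8.31 and 8.32 in 3D and 12.12, 12.58, 12.57 and 11.91 in tissue.

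Matrix genes were higher in the scaffold. Of 25 collagens and fibrillar matrix genes 16 were lower in tissue and 1 higher (Eln, elastin, 2.62), median -1.92 (18 and 2 without tissue replicates 2 and 3). The other probe set of Eln was not called (0.31). Lox, which crosslinks collagen and elastin, read 10.98, 11.97, 11.79 and 11.56 in 3D and 7.22, 6.31, 7.08 and 6.80 in tissue (26.4-fold higher in 3D, adjusted p = 9.2e-06). Thbs1, thrombospondin 1, was 16.5-fold higher in 3D (11.27, 11.55, 11.43 and 11.42 against 7.56, 6.97, 7.41 and 7.55). The abundant collagen Col1a1 was lowest on tissue replicates 2 and 3, reading 12.90, 13.10, 13.05 and 13.11 in 3D and 12.20, 9.26, 9.01 and 12.71 in tissue. Its difference was -2.25 over all arrays (adjusted p = 0.058) and -0.58 without tissue replicates 2 and 3 (adjusted p = 0.014). It also passed without tissue replicate 1 or 4. The other probe set of Col1a1 was not called (-0.20). Without tissue replicates 2 and 3 Lox and Thbs1 kept -4.57 and -3.86.

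Of 16 basement membrane genes 8 were lower in tissue and 0 higher, median -0.90 (10 and 2 without tissue replicates 2 and 3). The count was 3 without any 1 of the 3D arrays or without tissue replicate 2. Col18a1, from which endostatin is cut, read 13.06, 13.13, 13.12 and 13.14 in 3D and 8.97, 7.23, 7.74 and 8.40 in tissue (32.6-fold higher in 3D, adjusted p = 1.9e-05). Proteases and their inhibitors gave 17 of 22 lower and 0 higher, with a median of -2.35 (16 and 0 without tissue replicates 2 and 3). Timp1, an inhibitor of metalloproteases, read 12.43, 12.97, 12.89 and 12.77 in 3D and 5.92, 5.73, 7.05 and 5.81 in tissue, 99.6-fold higher in 3D (adjusted p = 3.1e-06). Mmp3, the metalloprotease stromelysin 1, was 67.4-fold higher (9.42, 12.57, 11.19 and 10.67 against 4.65, 5.05, 4.93 and 4.92) and varied by more than 3 units among the cultures.

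Adhesion genes were mostly higher in 3D among those called. Of 25 integrin and focal adhesion genes 13 were lower in tissue and 3 higher (Tns1 2.11, Itga3 1.42 and Itgb3 0.68), median -0.53 (13 and 5 without tissue replicates 2 and 3). Itga5, which pairs to form the fibronectin receptor, was 11.3-fold higher in 3D (9.37, 9.71, 9.67 and 9.66 against 6.24, 5.49, 6.09 and 6.62). Targets of YAP and TAZ, regulators that enter the nucleus of spread cells, gave 11 of 19 lower and 2 higher (Rbms3 1.43 and Ptpn14 0.76), median -0.83 (11 and 3 without tissue replicates 2 and 3). With its probe sets averaged, Ptpn14 did not pass (0.23, adjusted p = 0.14). Ccn2, connective tissue growth factor, read 11.75, 11.86, 12.26 and 12 in 3D and 7.54, 7.41, 7.34 and 7.90 in tissue (21.4-fold higher in 3D, adjusted p = 1.8e-06). Stress fibre and nuclear lamina genes gave 15 of 22 lower and 0 higher, median -1.40 (16, 1 and median -0.92 without tissue replicates 2 and 3).

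Of 10 caveolae and flotillin genes, which shape membrane microdomains, 3 were higher in tissue (Cavin2 1.76, Cav1 1.5 and Flot2 1.19) and 2 lower (Cavin3 -3.04 and Cavin1 -0.86), and 5 and 2 without tissue replicates 2 and 3. Cav1, caveolin 1, read 9.89, 10.08, 10.54 and 9.95 in 3D and 12.29, 11.53, 10.65 and 11.97 in tissue, and only tissue replicate 3 came near the 3D arrays (2.82-fold, adjusted p = 0.0092). Cavin3, a coat protein of the same pits, read 10.18, 10.5, 10.70 and 10.61 in 3D and 8.33, 6.70, 6.20 and 8.59 in tissue (8.24-fold higher in 3D, adjusted p = 0.0022). These genes of 1 structure were called in opposite directions. Their share called stands beside 35.6% over all genes.

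Several of the 15 genes with the largest excess in 3D belong to none of the lists. Fgf5, a secreted growth factor, read 12.23, 12.76, 12.81 and 12.77 in 3D and 5.01, 4.80, 6.18 and 4.40 in tissue, 187-fold higher in 3D (adjusted p = 4.2e-06). Ereg, a ligand of the EGF receptor, was 95.2-fold, Slitrk6, a membrane protein with leucine-rich repeats, 112-fold, and Clca3a2, of the chloride channel accessory family, 167-fold higher. Tpbg, a surface glycoprotein of migrating cells, was 58.2-fold, Lgr6, a receptor for R-spondins, 52.9-fold, and Adamtsl1, a secreted matrix protein, 62.8-fold higher. Of the 64 called genes at least 16-fold higher in 3D, 34 are on the lists, among them 8 cytokines and 6 genes each of mitosis and of the proteases. Of the 12 at least 16-fold higher in tissue, 5 are.

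Metabolic and stress lists differed by program. Glycolysis and hypoxia genes gave 8 of 24 lower in tissue and 3 higher (Aldoc 1.89, Slc2a3 0.83 and Ndrg1 0.60), median -0.58 (8, 4 and median -0.15 without tissue replicates 2 and 3). Over all genes 20.1% were called lower in tissue and 15.5% higher. After cyclic loess 7 members were lower and 7 higher, and after centring on bright probe sets 5 and 5. The lean toward 3D was thus not kept. Stc2, stanniocalcin 2, was 12.5-fold higher in 3D (11.18, 11.51, 11.55 and 11.43 against 7.55, 7.89, 7.80 and 7.85). The 3 genes higher in tissue all lost their call when 3D replicate 2, 3 or 4, or tissue replicate 2, was left out, and the lower count was 5 without 3D replicate 2. Without tissue replicate 3 the higher count was 5. Aldoc and Slc2a3 also lost it without tissue replicate 1 or 4, and Ndrg1 without 3D replicate 1. Respiratory chain and citrate cycle genes gave 5 of 24 higher (Ndufb8 1.40, Ppargc1a 1.15, Cox5a 0.54, Atp5a1 0.54 and Ndufv1 0.39) and 0 lower. The share called in either direction was under the 35.6% of all genes, while the share higher in tissue was above the 15.5% of all genes. The median of the list was -0.22 over all arrays and 0.29 without tissue replicates 2 and 3, where 12 were higher. The higher count ran from 2 to 9 with 1 array left out, at 9 without tissue replicate 3 and 2 without 3D replicate 2 or 4. A dimmer probe set of Ndufb8 was called the opposite way (-1.15, adjusted p = 0.026), so that its direction depends on the probe set. By the mean of the probe sets Ndufb8, Atp5a1, Ndufv1 and Slc2a3 did not pass (adjusted p = 0.65, 0.66, 0.82 and 0.35).

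Cholesterol and fatty acid synthesis gave 8 of 18 higher in tissue and 0 lower, median 0.44 (13 without tissue replicates 2 and 3). The count was 4 when 3D replicate 2, 3 or 4, or tissue replicate 1 or 2, was left out, and 5 without tissue replicate 4. Among all genes 15.5% were called higher in tissue and 35.6% in either direction. Hmgcs1, the synthase at the start of the sterol pathway, was 1.86-fold higher (12.70, 12.17, 12.19 and 12.28 against 13.10, 13.39, 13.41 and 13.03). The unfolded protein and ATF4 list gave 14 of 20 lower and 1 higher (Phgdh 0.93), median -1.08 (15 and 1 without tissue replicates 2 and 3), and 9 lower without 3D replicate 1 or tissue replicate 2. Atf4 was 2.40-fold higher in 3D (12.18, 12.14, 12.32 and 12.24 against 10.95, 11.01, 10.75 and 11.11). Its other 2 probe sets were not called, and the mean of the 3 was -0.35 (adjusted p = 0.17). NRF2 targets and metallothioneins gave 8 of 16 lower and 2 higher (Mt3 2.32 and Gpx3 1.01), median -0.75 (8 and 4). Hmox1, heme oxygenase 1, was 13.9-fold higher in 3D (10.10, 9.59, 8.61 and 10.83 against 6.35, 5.42, 5.71 and 6.47). Mt3, the neural metallothionein, was 4.98-fold higher in tissue (8.33, 7.42, 7.84 and 7.70 against 10.08, 10.01, 9.64 and 10.83). Gpx3 lost its call without 3D replicate 2, 3 or 4 (adjusted p up to 0.076).

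**Figure D4:**
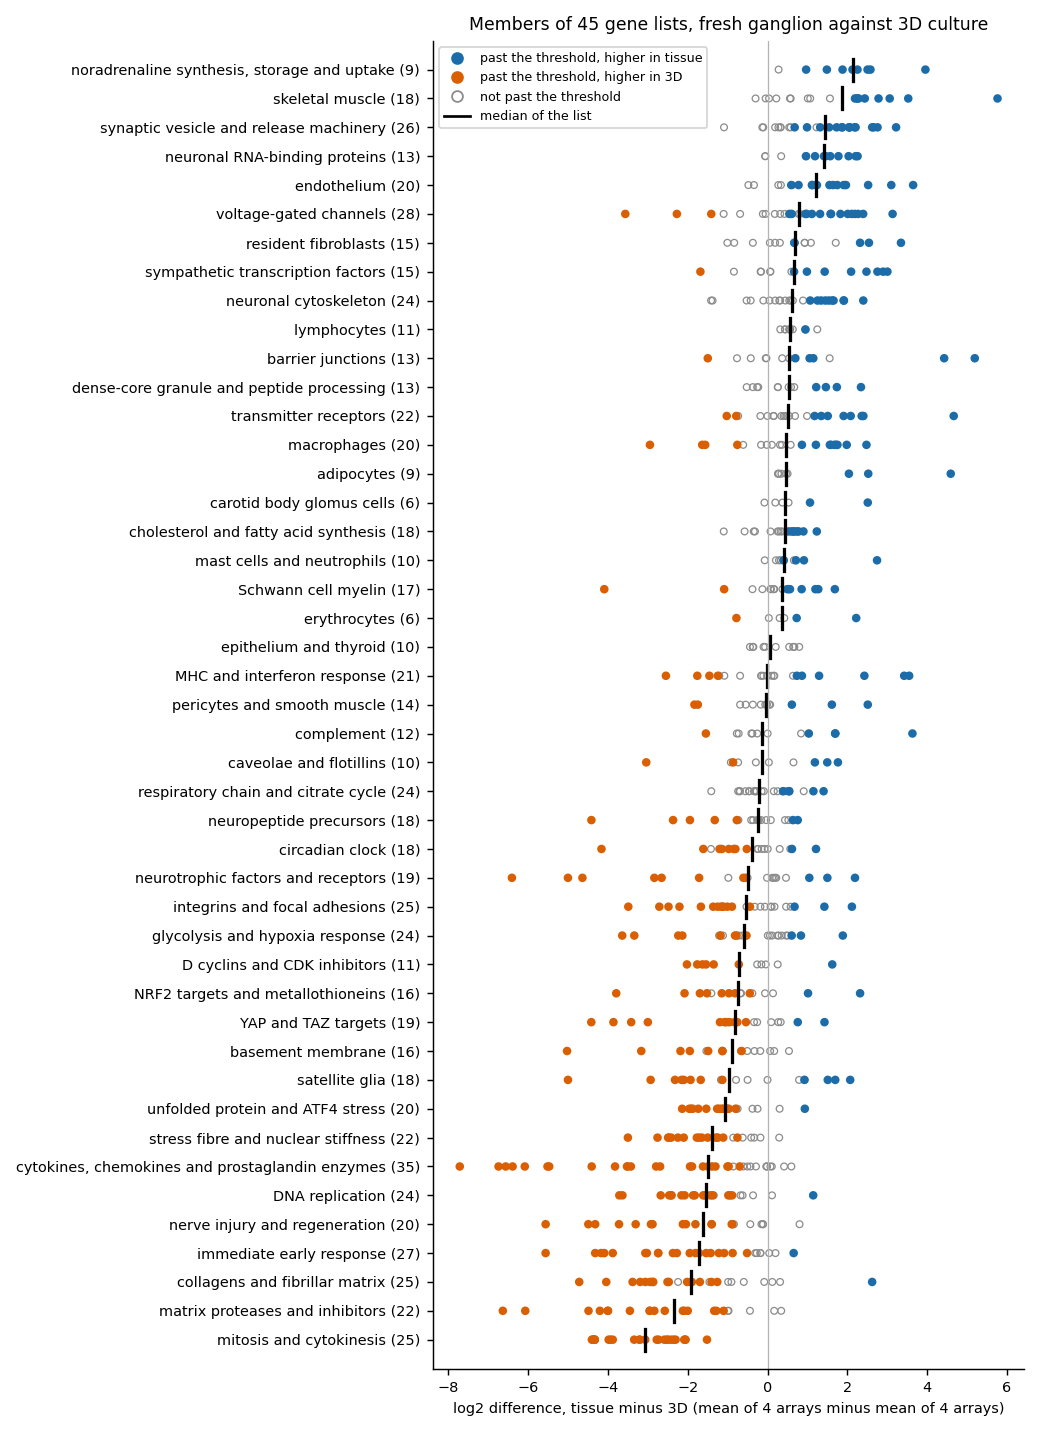
Log2 difference (tissue minus 3D) of every measured member of the 45 gene lists, ordered by the list median (black bar), with the number of measured genes in brackets. Filled points passed the threshold, blue higher in tissue and orange higher in 3D, and open points did not. The medians run from 2.13 for noradrenaline genes to -3.07 for mitosis, and all 25 mitosis genes are filled.

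Cells that are not part of the ganglion were also looked for. Of 18 skeletal muscle genes 8 were higher in tissue and 0 lower (3 and 0 without tissue replicates 2 and 3). The count was 2 without any 1 of the 3D arrays or tissue replicate 2, and 4 without tissue replicate 4. Among all genes 15.5% were called higher in tissue and 35.6% in either direction. Myh1, a fast muscle myosin and the gene of largest excess in tissue, read 3.36, 3.60, 3.48 and 3.32 in 3D and 4.38, 11.23, 10.94 and 10.26 in tissue. Its mean difference of 5.76 (standard error 1.33, adjusted p = 0.011) rests on tissue replicates 2 to 4. Fat cell genes gave 3 of 9 higher and 0 lower, also without tissue replicates 2 and 3: Fabp4 (4.59), which capillary endothelium also makes, Adipoq (2.52) and Ucp1 (2.04), the heat-producing protein of brown fat. The share called in either direction was near the 35.6% of all genes, and the share higher in tissue was above the 15.5% of all genes. Adipoq read 3.87, 3.88, 4.27 and 4.06 in 3D and 6.50, 5.50, 5.92 and 8.25 in tissue. The summed level of the 9 genes was 8.60 to 8.92 in 3D and 10.95 to 11.86 in tissue. The carotid body lies close to this ganglion, and 2 of 6 genes of its glomus cells were higher (Rgs5 2.51, also a pericyte gene, and Kcnk3 1.06). Without tissue replicates 2 and 3 this count was 4. Summed levels of the glomus genes were 11.54 to 11.82 in 3D and 12.51 to 12.96 in tissue. Their share called in either direction was again near that of all genes, and their share higher in tissue was above it.

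Of 6 red cell genes 2 were higher in tissue (Alas2 2.22 and Slc4a1 0.73) and 1 lower (Hba-a2, -0.78), also without tissue replicates 2 and 3. Over all genes 35.6% were called. Summed levels of the red cell genes were 10.30 to 10.43 in 3D and 10.34 to 10.66 in tissue. Of 10 mast cell and neutrophil genes 4 were higher: Kit (2.74), Cpa3 (0.91), Mcpt4 (0.71) and Csf3r (0.40), and 5 without tissue replicates 2 and 3. Their share called in either direction was near the 35.6% of all genes, and their share higher in tissue was above the 15.5% of all genes. Their summed level was 8.89 to 9 in 3D and 9.82 to 10.20 in tissue. The other probe set of Kit was not called (0.30). Of 11 lymphocyte genes 1 was higher (Cd8a, 0.95), as was 1 without tissue replicates 2 and 3, with 9.45 to 9.76 in 3D and 9.71 to 10.91 in tissue, and the arrays of poorer RNA gave the 2 highest sums, 10.84 and 10.91. The share of lymphocyte genes called was under that of all genes. The lymphocyte count was 5 without tissue replicate 1 and 3 without tissue replicate 4. Csf3r lost its call without any 1 of the 3D arrays, and Mcpt4 and Cd8a without any 1 of them or without tissue replicate 2 (adjusted p up to 0.11). RMA gives no detection call, so a low sum is not proof of absence. The part of these cells in the other differences was not tested.

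**Figure D5:**
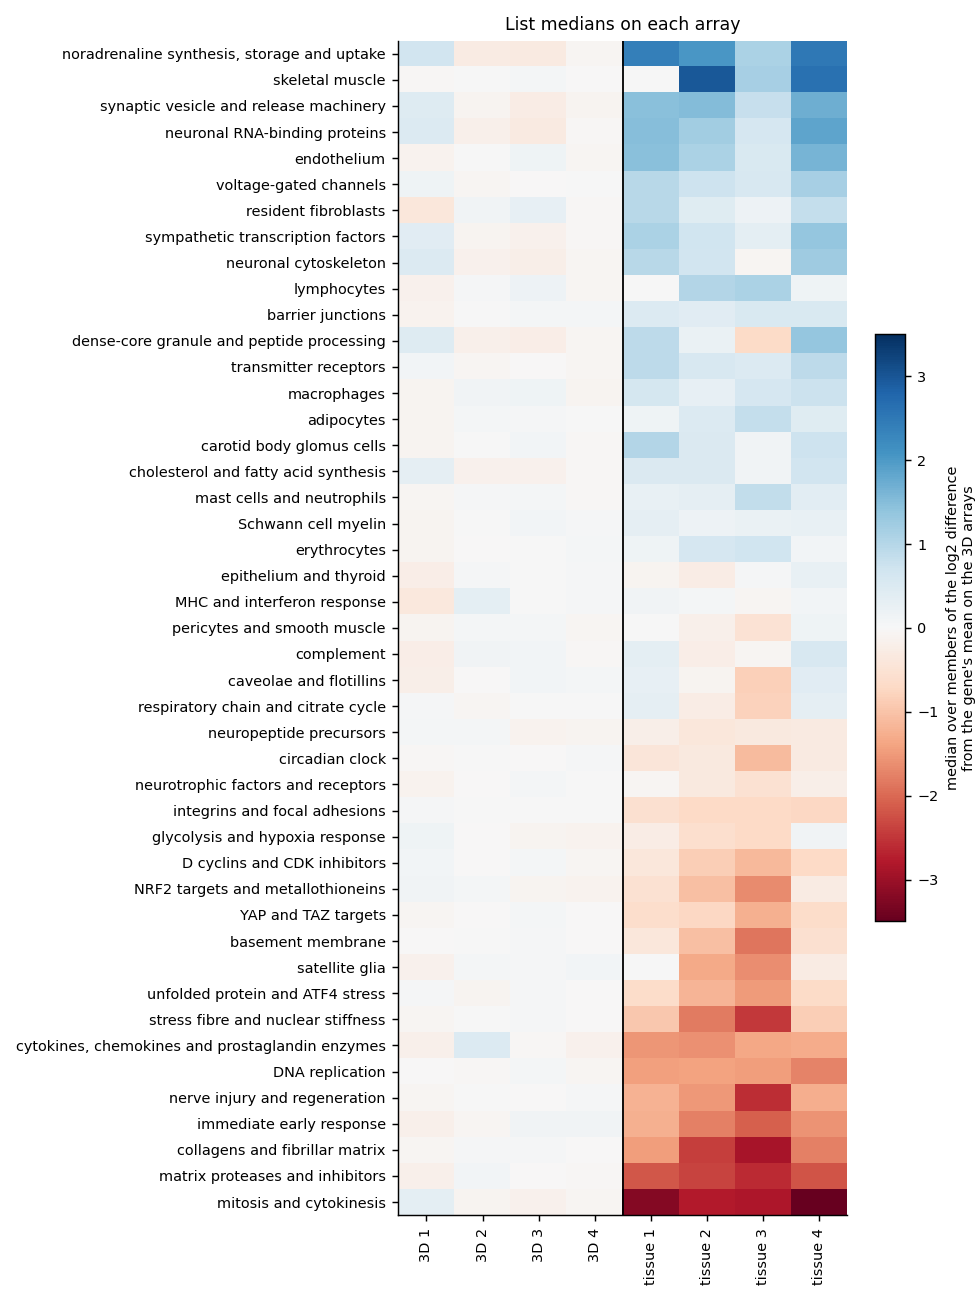
Median over the members of each list of the log2 difference from the gene's mean on the 3D arrays, for each 3D and tissue array, with lists ordered as by their median tissue difference. Blue is higher and red lower than the 3D mean. The mitosis list lies between -2.79 and -3.49 on all 4 tissue arrays, satellite glia between 0 on tissue replicate 1 and -1.64 on tissue replicate 3, and muscle at 0.03 on tissue replicate 1 and at 1.15 or more on the others.

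The root mean square log2 distance between 3D arrays had a median over pairs of 0.24, against 0.63 between tissue arrays and 0.96 between a 3D and a tissue array. Within the scaffold, replicate 1 had the highest noradrenaline gene levels. The median of the noradrenaline list relative to the 3D means was 0.66 on 3D replicate 1 and between -0.31 and -0.06 on the others, and the values on tissue ran from 1.12 to 2.51. In Ddc, Th and Slc6a2 it was the highest of the 3D arrays.

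The 3 genes called between scaffold and flat culture were all higher in 3D, and were named after their values had been seen. Akr1c18, a hydroxysteroid dehydrogenase, averaged 6.40 in 2D, 8.90 in 3D and 6.40 in tissue (adjusted p = 0.027 for 3D against 2D and 3.6e-05 for tissue against 3D). Asgr1, a lectin receptor, averaged 4.75, 6.20 and 3.92 (adjusted p = 0.017 and 1.1e-05). Nr4a2, an orphan nuclear receptor, averaged 7.81, 8.87 and 8.36 (adjusted p = 0.033 and 0.031). The call of Nr4a2 between tissue and 3D ended without 3D replicate 1, 3 or 4 or tissue replicate 4, and its difference of -0.52 was -0.18 after cyclic loess (adjusted p = 0.52) and -0.24 after centring (adjusted p = 0.38). The 2 comparisons share the 3D arrays.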

How the data were processed

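Gene expression was measured on Affymetrix whole-genome mouse arrays of 4 tissue, 4 3D and 4 2D samples, labelled from total RNA and grouped by sample title. The deposited log2 values were made by the authors with RMA in Expression Console, whose version is not stated, and were used unchanged. Of 45101 probe sets 64 controls were left out, and 34945 had 1 gene symbol. A gene was its probe set of highest mean over the 12 arrays, giving 18193 genes.

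The 8 arrays of tissue and 3D were fitted with lmFit and eBayes of limma 3.58.1 (R 4.3.3). All 45037 probe sets entered the Benjamini-Hochberg adjustment, and an adjusted p under 0.05 was called. On simulated data 47 of 100 genes changed 2-fold, 87 of 100 changed 4-fold and 11 of 44837 unchanged were called. There each gene had the same spread in both groups and varied independently of the others. In the data the median SD was 0.37 in tissue and 0.12 in 3D, so these rates need not hold for them. With 70 splits of the 8 arrays an exact test of a single gene cannot go below p = 0.0286, so none is given. The number of arrays limits the precision. Scan dates were not used, so batches were not tested.

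The members and the 45 gene lists (800 of 872 genes measured) were chosen with earlier results of these data known. Lists can share genes, as Atf3 is on the injury and the immediate early lists. The genes named are the 15 highest and 15 lowest past the threshold without overlap, 4 per list by smallest adjusted p, and defining genes of the tissue. Members of counts of 5 or fewer, the 8 trophic genes and the 3 genes of 3D against 2D were named after their values were seen. Some defining genes are not reported here. Promoters are RefSeq sequences (GRCm38.p6). Alternatives covered the arrays fitted, weights, prior, filter, normalization, centring, replicate block, choice of probe set, test and arrays left out.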

Additional observations from a re-analysis of the deposited data

Results flagged for a closer look

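For the genes named above and the array measures, 1 of the 4 arrays of a group lay far from the other 3 in 24 of 358 groups tested, where chance flags about 1 in 20. The part of any technical difference in these values was not tested.

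On 3D replicate 1, values above the other 3D arrays were those of Aldoc (11.14), Chrna3 (10.32), Dbh (12.8), Gpx3 (9.62), Hand2 (12.21), Mki67 (10.96), Ntrk3 (6.74), Tpx2 (9.87) and Kit (6.41). Values below the other 3D arrays were those of Atf3 (12.76), Clca3a2 (9.27), Fgf5 (12.23), Fos (11.98), Fosl2 (11.8), Itga5 (9.37) and Marveld2 (4.52). On 3D replicate 2, Cdh1 (4.39) and Ndufb8 (10.57) stood apart.

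Among tissue arrays, replicate 3 stood apart in Csf3r (6.82), Mcpt4 (5.67), Slc6a2 (13.41) and Timp1 (7.05), replicate 4 in Itga3 (10.71) and replicate 1 in Myh1 (4.38).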

How the results depend on the processing

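The count of genes higher in tissue ran from 1817 to 3505 and the lower count from 2553 to 4363 with 1 array left out. Requiring 2-fold left 1370 and 2253. The other settings for all genes gave 2253 to 4137 higher and 2620 to 4561 lower. Of 176 genes named, 168 passed the threshold and 142 of these kept sign and call whichever array was left out.

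Npy turned to 0.3229 with array quality weights, 0.06833 after cyclic loess, 0.035 after centring on bright probe sets, 0.5225 without tissue replicates 2 and 3 and 0.2025 with tissue replicate 1 alone, and ran from -0.6042 to 0.1825 with 1 array left out. Dbh ran from -0.155 to 0.8417. Of the genes named 113 had several probe sets, and in 2 of them another was called the opposite way. In some, such as Top2a, Fosl2, Flot2, Ccne1 and Lifr, no other probe set was called. With the probe set of highest SD, Atp5a1 was -0.985, Cfp -1.085, Ndrg1 -0.6675, Ndufb8 -1.147, Ndufv1 -0.34 and Slc2a3 -0.795, and with the mean of a gene's probe sets Cfp was -0.02625 and Ndrg1 -0.1285. The cause was not tested.

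Deviations of tissue and 3D arrays of the same replicate number correlated at 0.212, 0.013, 0.249 and 0.099. Those of different numbers correlated at -0.281 to 0.137. Whether arrays of the same number share a preparation was not tested. With the replicate block 2649 genes were higher and 3489 lower, and 8 named genes lost and 1 gained a call. RMA values carry no detection call, so low levels have no lower bound here.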
